A study of Mus musculus with 2 samples.

Results

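A set of 9 genes linked to the fetal-like, revival state of gut epithelium were followed by symbol across the spatial transcriptomes of 2 mouse intestine sections: Clu, Ly6a, Anxa1, Anxa2, Anxa3, Il33, Basp1, Spp1 and Cd55. All 9 were found among the 54658 gene symbols counted, and each had 200 or more counts over both sections. The labels call the sections WTIR, from a wild type mouse, and KOIR, from a Dpf2 knockout mouse, and they are named so below. Dpf2 encodes a subunit of a chromatin remodelling complex. Both mice had received 10 Gy of X-rays, and no unirradiated section is analysed here. The labels give the tissue as intestine and do not give the stretch of gut, the time after exposure, or the cells in which Dpf2 was deleted. With 1 section per genotype there is no replicate and no test, and no difference below can be assigned to the genotype. Intervals cover counting error only.

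The gut lining is renewed from stem cells at the base of the crypts, next to Paneth cells, which make antimicrobial peptides. After irradiation has killed dividing stem cells, surviving epithelium is known to switch on genes of the fetal gut for a time while it rebuilds the crypts, and Clu marks the rare revival stem cells of that response. The YAP and TEAD transcription factors drive much of this program. The 9 genes are not specific to epithelium. Clu is also made by follicular dendritic cells and stroma, Spp1 by macrophages and other non-epithelial cells, and Ly6a by endothelium and haematopoietic cells.

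The WTIR section held 50970 barcodes with 39824941 counts, and the KOIR section 88056 barcodes with 89754886 counts. The medians were 721 and 932 counts per barcode. Levels are counts per 1000000 counts of a section (CPM), and they are compared between sections for 1 gene at a time, since they are not scaled to gene length. Dpf2 itself does not bear out the labels, at 23.6 CPM in the WTIR section and 26.0 CPM in the KOIR section (log2 ratio 0.14, 95% interval 0.03 to 0.25). The position of the deletion in the transcript is not known here. Cell makeup differed widely as well. A list of 20 Paneth cell genes summed to 131785 CPM against 7374 CPM, 16 enterocyte genes to 550 against 36209 CPM, and 14 neutrophil genes to 587 against 26.8 CPM, WTIR first. Epithelial genes were found in both, with 10 pan-epithelial genes at 5325 and 7684 CPM, though that list is not particular to intestine. Fewer cells of a type and less RNA per cell cannot be told apart in these sums, and the part that cell makeup plays in the differences below was not tested. The sections shared 45557 barcode names, which number positions on the array and are not cells.

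The program is known for its TEAD input, so the 250 bases before each RefSeq start (GRCm38.p6) were searched for GGAATG or its reverse complement CATTCC (TEAD), and for TGANTCA on both strands (AP-1). RefSeq windows were at hand for 6 of the 9 genes, 8 windows in all. A TEAD match stood in 3 of the 8, at 1 start of Anxa1 and both starts of Il33, against 12.6% of 32851 windows. An AP-1 match stood in 1 of the 8, that of Anxa2, against 6.75% of windows. The windows of Basp1, Spp1 and Cd55 held neither. The windows of Anxa1 (chr19:20390672-20390921, minus strand), Anxa2 (chr9:69453433-69453682, plus strand) and the first start of Il33 (chr19:29924863-29925112, plus strand) are shown because they hold the matches, 5′ to 3′, with the matched letters in capitals. A match is a string of letters, not a shown binding site.
Anxa1: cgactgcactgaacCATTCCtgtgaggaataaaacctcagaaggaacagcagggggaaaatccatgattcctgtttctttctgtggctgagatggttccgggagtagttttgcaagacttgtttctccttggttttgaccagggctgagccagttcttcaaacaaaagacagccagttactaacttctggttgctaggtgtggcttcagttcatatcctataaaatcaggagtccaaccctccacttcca
Anxa2: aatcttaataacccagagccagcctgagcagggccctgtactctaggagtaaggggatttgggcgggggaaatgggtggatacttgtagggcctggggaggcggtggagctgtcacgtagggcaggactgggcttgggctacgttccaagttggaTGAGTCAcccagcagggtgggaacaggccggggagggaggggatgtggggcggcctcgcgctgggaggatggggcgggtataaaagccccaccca
Il33: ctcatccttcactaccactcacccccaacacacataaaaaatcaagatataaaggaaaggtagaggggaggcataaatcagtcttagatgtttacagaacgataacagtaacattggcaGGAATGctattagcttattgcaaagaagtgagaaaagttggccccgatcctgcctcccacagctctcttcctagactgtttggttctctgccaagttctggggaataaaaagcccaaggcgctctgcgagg
The matches lie 236, 95 and 131 bases before the start. Of these 3 genes, Anxa1 and Il33 were far lower in the KOIR section and Anxa2 was close to equal, as described next. Among the genes with neither match, Spp1 (log2 ratio −5.13) and Basp1 (−1.43) were lower as well, and Cd55 was higher (0.94). Whether the matches bear on the levels was not tested.

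Together the 9 genes took 3036 CPM (0.304% of counts) in the WTIR section and 1258 CPM (0.126%) in the KOIR section, a log2 ratio of −1.27 (95% interval −1.28 to −1.26). That sum is mostly 2 genes. Ly6a gave 36.2% and Anxa2 39.2% of it in the WTIR section, and Anxa2 alone gave 78.1% in the KOIR section. Without Anxa2 the log2 ratio was −2.74 (1846 against 276 CPM), and without Ly6a it was −0.69 (1937 against 1201 CPM). Counted singly, KOIR had 7 of the 9 at a level at least 2-fold below that of WTIR, against a background of 19.7% of the 14516 genes with 200 or more counts. None of the 9 was at least 2-fold higher, against 15.7%. Of the 9, 6 were at least 4-fold lower (background 5.94%) and 3 at least 8-fold lower (background 2.34%). Their median log2 ratio was −2.10, beside −0.18 over the same 14516 genes. In the 4 parts of each section split by position, all 4 values lay below those of the other section for 8 of the 9 genes (background 42.8%) and above them for 1, Cd55 (background 31.6%). Parts of 1 section are not replicates.

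**Figure D1:**
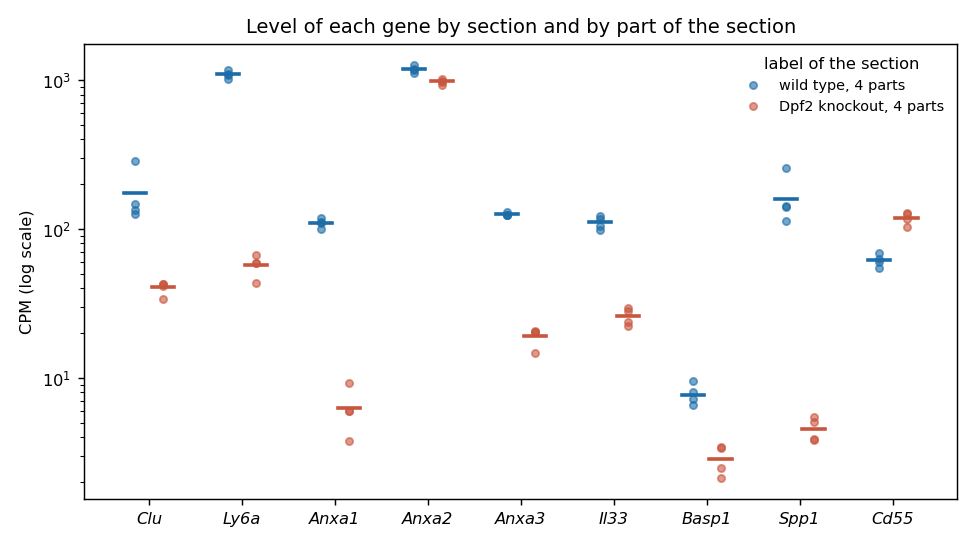
CPM on a log axis for each of the 9 genes. Dots are the 4 parts of a section and short lines the whole section, with the WTIR section in blue and the KOIR section in red. The dots of the sections do not overlap for any gene: 8 genes are lower in the KOIR section, by 1.21-fold for Anxa2 up to 35.0-fold for Spp1, and Cd55 is higher.

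Ly6a (ENSMUSG00000075602, chr15:74994877-74998031 on GRCm38) encodes a surface protein of the LY6 family used as the classic marker of fetal-like, repairing gut epithelium. Its 4 parts stood at 1107, 1089, 1023 and 1164 CPM in the WTIR section and at 43.1, 66.4, 58.7 and 59.4 CPM in the KOIR section. All 4 parts were high in the first section and low in the second. Whole sections stood at 1099 against 57.3 CPM, 19.2-fold apart (log2 ratio −4.26, 95% interval −4.30 to −4.22). Tiles of 100 position units ranged from 491 to 1680 CPM in the WTIR section and from 19.2 to 119 CPM in the KOIR section. All 65 tiles of the first lay above the highest of 92 tiles in the second. Ly6a belongs to a cluster of similar genes on chromosome 15, and how the authors' counting shared reads among them is not given, so its level carries that uncertainty.

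Clu (ENSMUSG00000022037, chr14:65968483-65981548) encodes clusterin, a secreted chaperone. Its parts stood at 133, 127, 146 and 284 CPM in the WTIR section and at 34.0, 42.5, 41.6 and 43.0 CPM in the KOIR section. In the first section 1 part stood well above the rest. Over the whole sections Clu was at 173 against 40.5 CPM, 4.28-fold apart (log2 ratio −2.10, −2.16 to −2.04). Without the high part the log2 ratio was −1.73.

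The annexins bind membranes in the presence of calcium. Anxa1 (ENSMUSG00000024659, chr19:20373434-20390671), whose protein dampens inflammation through formyl peptide receptors, stood at 99.3, 118, 109 and 112 CPM in the parts of the WTIR section and at 3.74, 9.19, 5.95 and 5.97 CPM in those of the KOIR section. Anxa3 (ENSMUSG00000029484, chr5:96793385-96845968) stood at 123, 130, 125 and 124 CPM against 14.6, 20.3, 20.2 and 20.5 CPM. Both were even across the first section and far lower across the second, 17.6-fold for Anxa1 (log2 ratio −4.14, −4.26 to −4.01) and 6.58-fold for Anxa3 (−2.72, −2.80 to −2.64). Anxa2 (ENSMUSG00000032231, chr9:69453683-69491792), which pairs with S100A10 at the cell surface, behaved otherwise. Its parts ranged from 1120 to 1270 CPM in the WTIR section and from 932 to 1025 CPM in the KOIR section. These ranges lie close together, and the log2 ratio was −0.28 (−0.29 to −0.26). It was 0.01 (interval −0.05 to 0.07) in squares with no neutrophil count, which hold 5.31% of the counts of the first section and 74.1% of those of the second.

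Il33 (ENSMUSG00000024810, chr19:29925113-29960718) encodes a cytokine released from damaged barrier cells as an alarm signal. It stood at 117, 122, 104 and 98.6 CPM in the parts of the WTIR section against 22.2, 23.7, 28.2 and 29.6 CPM, 4.24-fold apart (log2 ratio −2.09, −2.16 to −2.01). Spp1 (ENSMUSG00000029304, chr5:104435111-104441053) encodes osteopontin, a secreted ligand of integrins and CD44. It stood at 143, 113, 258 and 140 CPM against 3.83, 5.03, 5.42 and 3.89 CPM, 35.0-fold apart (−5.13, −5.28 to −4.98). It had the lowest ratio of the 9, and its level was uneven in the first section.

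Basp1 (ENSMUSG00000045763, chr15:25363277-25413764), a membrane-associated growth cone protein, was sparse, with 307 counts in the WTIR section and 256 in the KOIR section. Its parts ranged from 6.53 to 9.49 CPM and from 2.11 to 3.45 CPM (log2 ratio −1.43, −1.68 to −1.19). Cd55 (ENSMUSG00000026399, chr1:130429798-130465009), a brake on complement at the cell surface, ran the other way. Its parts stood at 59.9, 63.0, 54.4 and 69.2 CPM in the WTIR section and at 103, 116, 128 and 126 CPM in the KOIR section. Every part of the second section was higher (log2 ratio 0.94, 0.88 to 1.004).

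The size of several ratios moved with the squares kept. Squares at or above the median pan-epithelial share held 23.6% of WTIR and 65.0% of KOIR counts. In them the log2 ratio was −4.94 for Ly6a, −5.40 for Anxa1, −3.39 for Anxa3 and −4.07 for Spp1. Squares with no neutrophil count, with 5.31% of WTIR counts, gave −3.50 for Clu. There Clu stood at 427 CPM in the WTIR section, against 173 CPM over all of it. The part of the B cell-rich squares described below in that value was not tested. The squares poorest in smooth muscle genes, a step chosen after seeing the data, gave −2.26 for Basp1, −3.25 for Clu, −5.06 for Ly6a and −5.20 for Anxa1. The direction was the same in each.

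The sections were next cut into squares of 10 position units, whose size in micrometres is not given. A square holds a median of 11 barcodes and may span several cells. Squares with at least 2000 counts were kept (4669 and 8141) and each was thinned to 2000 counts, so that shares do not follow depth. Ly6a was counted in 85.6% of thinned squares of the WTIR section and 10.5% of those of the KOIR section (98.6% and 40.6% without thinning). Anxa1 was counted in 19.5% and 1.09% (52.4% and 6.08% without thinning), Spp1 in 22.7% and 1.06% (53.5% and 4.53%), and Clu in 23.4% and 7.997% (57.5% and 30.9%). Anxa2 was counted in 87.1% and 85.0% (98.5% and 99.4%), while Cd55 went from 11.9% to 20.5% (35.96% and 63.2%). Anxa3 was counted in 21.4% and 3.99% (57.6% and 17.4%), Il33 in 19.98% and 4.56% (52.6% and 22.7%), and Basp1 in 1.46% and 0.405% (5.98% and 2.95%).

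Clu and Spp1 were the patchy members of the WTIR section. Over its squares, the variance of thinned counts over squares was 2.89 times the mean for Clu and 2.15 times for Spp1, against 0.99 to 1.36 times for the other 7. Basp1, counted in 1.46% of thinned squares and never above 1, could not pass 1 by this measure. Squares next to one with a Clu count held 340 CPM of Clu, against 127 CPM next to squares without, a ratio of 2.68. For Spp1 the ratio was 2.02, and for the other 7 it ranged from 1.13 to 1.32. In the KOIR section the order was another: the ratio was 2.81 for Basp1, 2.43 for Anxa1, 2.39 for Spp1 and 1.64 for Clu, the first 3 of these on few squares with a count.

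**Figure D2:**
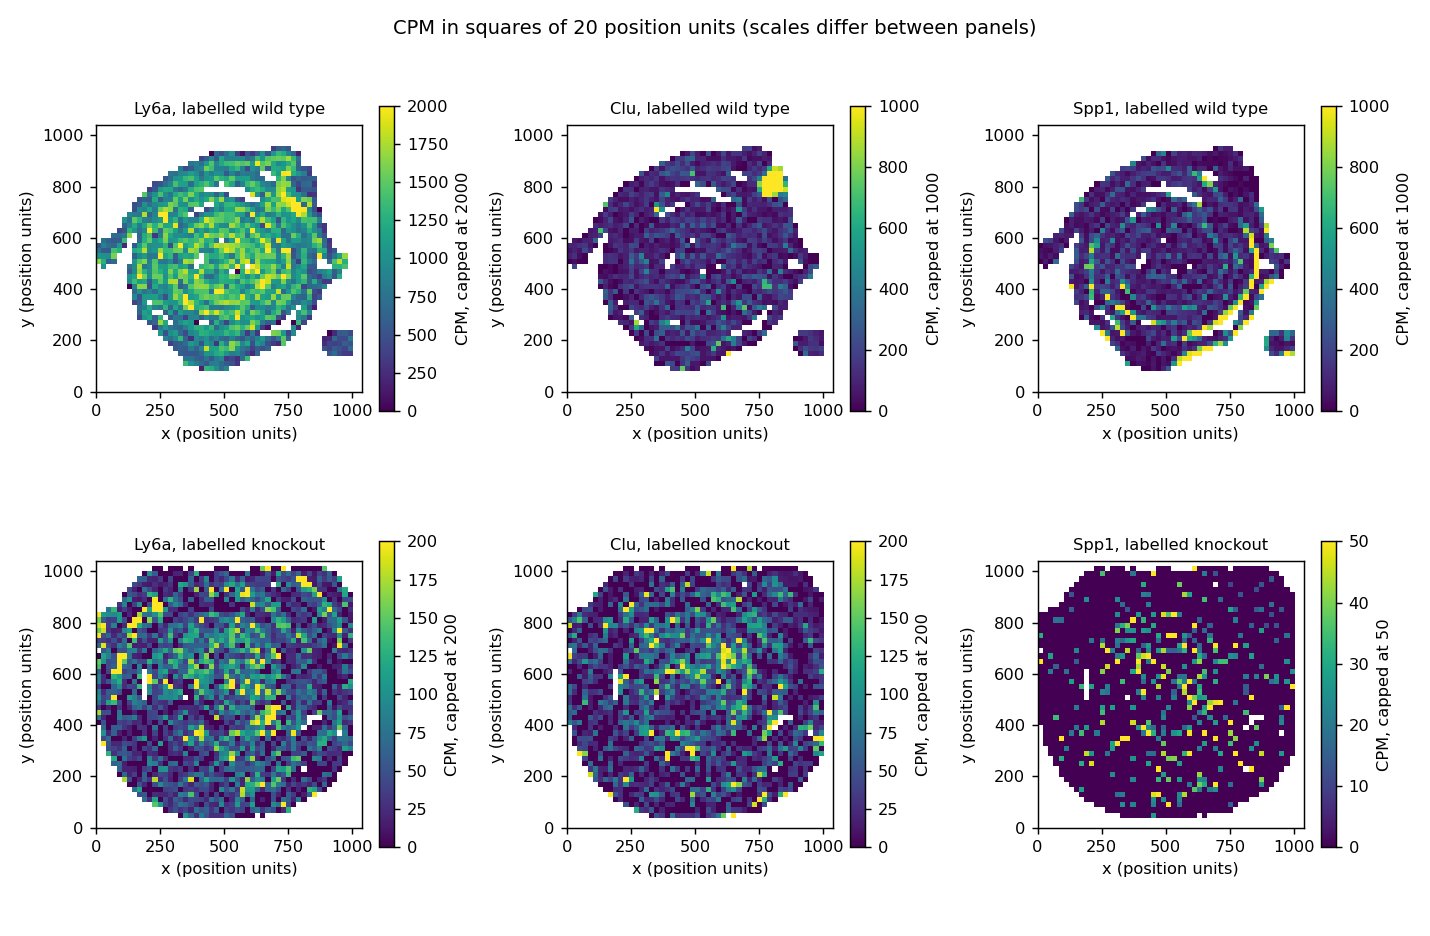
Maps of Ly6a, Clu and Spp1 in squares of 20 position units, with x and y in position units. The WTIR section is on top and the KOIR section beneath. Colour is CPM, and each panel has its own scale with a cap, lower in the KOIR section because levels there are lower. In the WTIR section Ly6a fills the coiled tissue, Clu has 1 bright patch near its upper right edge, and Spp1 follows outer bands of the coil. The 3 genes are thinly spread in the KOIR section.

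The bright Clu patch coincides with B cell genes. The tile of 100 units richest in 7 B cell genes (5299 CPM of them, 1186 CPM in the next tile) was also the highest of 65 tiles for Clu, at 2448 CPM, where the median tile had 133 CPM. It held 0.642% of the counts of the WTIR section and 9.06% of its Clu counts. The other members differed there. Ly6a ranked 62nd of 65 tiles and Anxa1, Anxa2, Anxa3 and Spp1 ranked last, while Il33 ranked 44th, Cd55 20th at 74.3 CPM, and Basp1, with few counts, 2nd. Over squares, Clu reached 918 CPM in the 336 squares richest in B cell genes, against 109 to 143 CPM in the other 4 classes. For Clu the log2 ratio of the richest to the poorest class was 2.78 for B cell genes (1.66 with squares of 20 units), 2.72 for T and NK cell genes and 1.74 for macrophage and dendritic cell genes. Those 336 squares held 5.58% of counts and 29.5% of Clu counts. Genes of follicular dendritic cells and lymphoid follicles, chosen after their values were seen, were high in the same squares: Cxcl13 stood at 424 CPM there and 17.8 to 24.5 CPM elsewhere, and Cr2 at 14.1 CPM (31 counts) there and 0 to 0.30 CPM elsewhere. The KOIR squares richest in B cell genes had 60.9 CPM of Clu, 1.77 CPM of Cxcl13 and 1 count of Cr2. With the B cell-richest squares of both sections left out, a step chosen after seeing the data, Clu stood at 130 against 39.9 CPM and its log2 ratio was −1.70.

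Spp1 was higher in muscle-rich squares of the WTIR section. It was higher there in each step of the 5 classes of squares ranked by 8 smooth muscle genes, at 66.6, 80.2, 102, 163 and 374 CPM. The richest class held 19.6% of counts and 47.2% of Spp1 counts. Its log2 ratio of the richest to the poorest class was 2.49, with 1.44 for enteric neuron and glia genes and 1.43 for fibroblast genes, and it was −1.84 for pan-epithelial genes. The KOIR smooth muscle classes held 3.21 to 6.61 CPM of Spp1, and the richest of them held 22.1% of counts and 23.0% of Spp1 counts. The smooth muscle list itself was higher in that section (1731 against 727 CPM). In the poorest smooth muscle class of each section, Spp1 stood at 66.6 against 3.21 CPM, a log2 ratio of −4.37.

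To place each member, squares of a section were ranked by the share of a marker list in their counts and cut into 5 classes, and the pooled level in the richest class was set over that in the poorest as a log2 ratio. Such ratios are read beside all genes with 200 or more counts in the squares, without the list itself, since many genes shift together. Members of the WTIR section fell into 2 patterns. Anxa2, Ly6a, Anxa1, Anxa3, Il33 and Cd55 were higher in squares rich in pan-epithelial genes, with log2 ratios from 1.23 for Il33 to 1.63 for Cd55, and in squares rich in proliferation genes, from 0.49 for Anxa1 to 0.94 for Ly6a. Of all genes, 75.9% were higher in the pan-epithelial-rich squares and 74.3% in the proliferation-rich ones, so 6 of 9 is close to the background. The median over the 9 members was 1.23 for pan-epithelial genes, and over all genes it was 0.40. Ly6a went from 644 to 1515 CPM and Anxa2 from 664 to 1745 CPM across the pan-epithelial classes. Clu, Spp1 and Basp1 were lower in the pan-epithelial-rich squares, at −0.90, −1.84 and −0.93. For Clu this rested on the B cell-rich squares: without them it was 0.77, the same direction as the other 6. Basp1 leaned to squares rich in fibroblast genes (1.52), neuron and glia genes (1.36) and smooth muscle genes (1.22), and it ran from 4.47 to 12.8 CPM across the fibroblast classes.

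**Figure D3:**
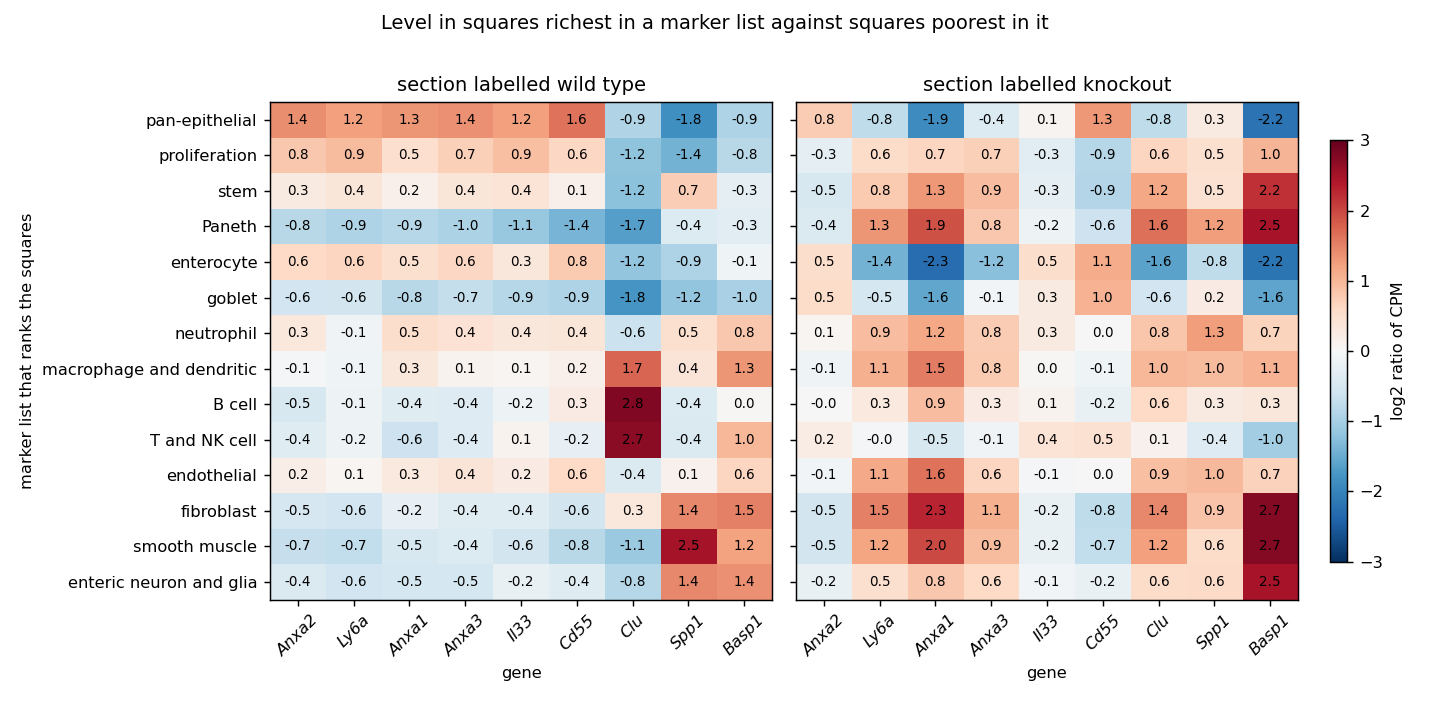
Log2 ratio of the level of each gene in squares richest in a marker list over squares poorest in it, by list (rows) and gene (columns), for each section. Red is higher in the richest squares and blue lower. In the WTIR section 6 genes are red for pan-epithelial genes and Clu, Spp1 and Basp1 are blue. In the KOIR section Ly6a, Anxa1, Clu and Basp1 are blue for pan-epithelial and enterocyte genes and red for Paneth, fibroblast and smooth muscle genes.

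Lgr5 and Olfm4 mark stem cells of the crypt base, and the stem list of 15 genes also holds others, such as Bmi1, Hopx and Lrig1. Its richest squares are not shown to be crypt base. Of the 9 members 7 were higher in the WTIR stem-richest squares, close to the 81.0% of all genes that were, and the median log2 ratio was 0.28 for the members and 0.22 for all genes. Spp1 went up most, from 112 to 187 CPM (0.74), Il33 from 91.4 to 121 CPM (0.40) and Ly6a from 949 to 1213 CPM (0.35). Clu was lower, from 308 to 131 CPM (−1.23), and this too rested on the B cell-rich squares, without which it was −0.01. For KOIR, 6 of 9 were higher (72.0% of all genes), with a median of 0.79 against 0.40 over all genes, led by Basp1 (2.19), Anxa1 (1.31) and Clu (1.16, from 24.6 to 54.9 CPM), while Cd55 went from 142 to 76.5 CPM (−0.89) and Anxa2 from 1059 to 754 CPM (−0.49).

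Against Paneth cell genes the log2 ratios of the sections had opposite signs for 6 of the 9 members, Basp1 among them only while Paneth genes stay in the total. The counts of members lie near those of all genes in both sections, and only the sizes are described here. In the WTIR section all 9 members were lower in the Paneth-richest squares than in the poorest, as were 93.2% of all genes, with a median log2 ratio of −0.93 against −0.63 over all genes. The 95% interval for Basp1 spans 0. Ly6a stood at 1476, 1323, 1161, 988 and 773 CPM from the poorest to the richest class. Paneth genes take up 25.7% of all counts in the richest class there, which lowers the CPM of every other gene. With the Paneth list taken out of the total, 8 members and 79.2% of all genes were lower and Basp1 stood at 0.03, with Ly6a at −0.57, Clu at −1.28 and Spp1 at −0.03. Spp1 did not follow the classes in order: it stood at 123, 150, 210, 224 and 93.4 CPM, highest in the class next to the richest, so its ratio of the end classes does not describe it. In the KOIR section, 6 members and 69.6% of all genes were higher in the Paneth-richest squares, with medians of 1.25 and 0.33. The 6 were Basp1 (2.48), Anxa1 (1.92), Clu (1.64), Ly6a (1.32), Spp1 (1.25) and Anxa3 (0.82). Ly6a stood at 32.0, 45.8, 58.1, 76.1 and 79.8 CPM over the same 5 classes, and Clu at 20.2, 27.6, 41.5, 55.0 and 62.9 CPM. Both climbed class by class. Cd55 (−0.62) and Anxa2 (−0.44) were lower in the Paneth-richest squares, and the interval for Il33 (−0.15) spans 0. Whether the sections differ in these slopes was not tested.

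**Figure D4:**
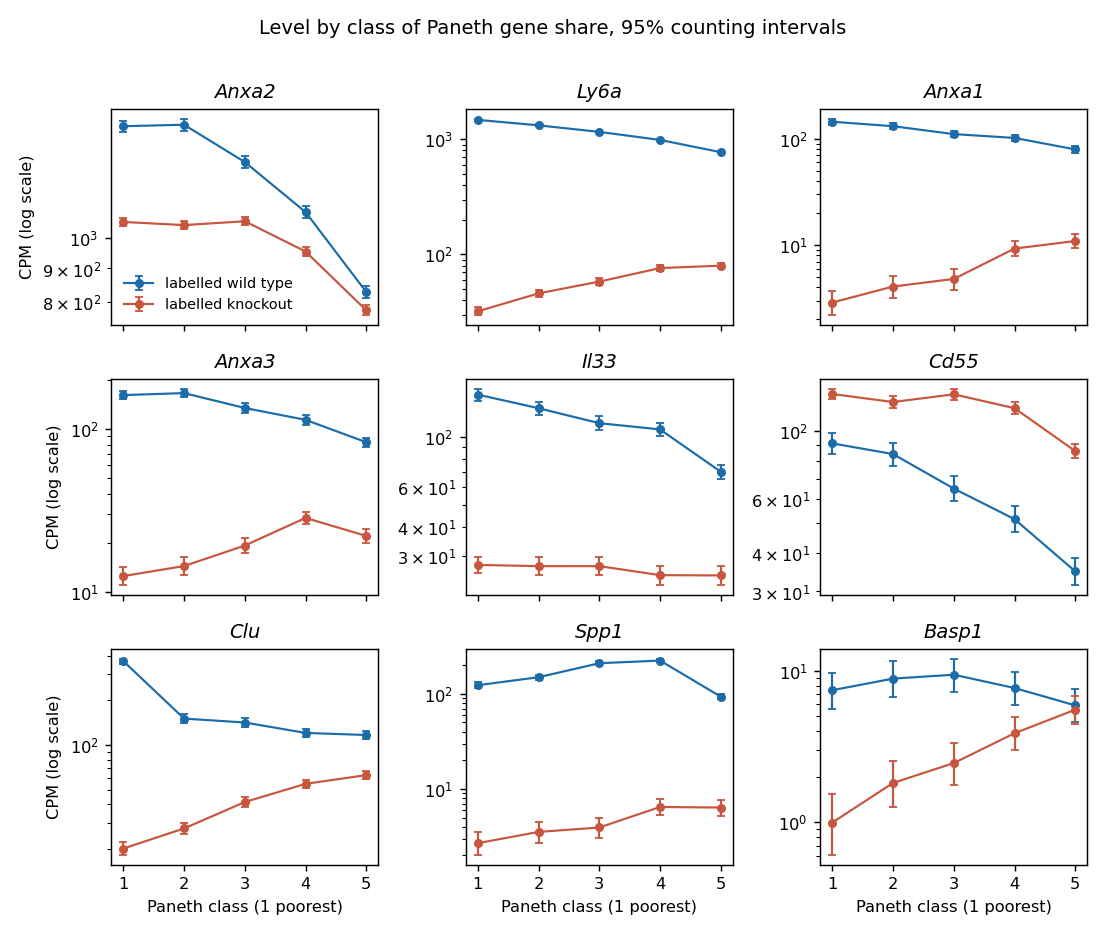
CPM on a log axis against the class of squares by share of Paneth genes, 1 being the poorest and 5 the richest, for the 9 genes, with 95% counting intervals. The WTIR section is in blue and the KOIR section in red. Ly6a falls from 1476 to 773 CPM in blue and climbs from 32.0 to 79.8 CPM in red, and Anxa2 and Cd55 fall in both.

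Levels were also taken by distance from the Paneth-richest squares, which are the starting point here and the richest class above, so the measures overlap. In the KOIR section, Ly6a went from 79.8 CPM in the Paneth-richest squares to 65.5, 52.2, 40.4 and 39.6 CPM at 1, 2, 3 and at least 4 squares away. Clu went from 62.9 to 21.6 CPM and Anxa1 from 10.9 to 3.44 CPM over the same steps. Cd55 went the other way, from 86.0 to 156 CPM. In the WTIR section, Ly6a went from 773 CPM in the Paneth-richest squares to 1315 CPM at least 4 squares away, and Clu from 117 to 300 CPM, B cell-rich squares included. Anxa1, Anxa2, Basp1 and Spp1 were highest at 2 squares away, Basp1 on few counts. How all genes move over these steps is not given here. Anxa1 went through 79.3, 119, 139, 123 and 111 CPM, and Spp1 through 93.4, 206, 225, 154 and 119 CPM. Anxa2 went through 829, 1224, 1465, 1373 and 1352 CPM. Paneth genes are in the total of these levels, which lowers the first of each.

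Absorptive enterocytes line the villi, and in the KOIR section 6 of the 9 members were lower where their genes were rich, as were 74.6% of all genes. The median log2 ratio was −1.25 for the members and −0.60 for all genes. Across the enterocyte classes Ly6a went from 76.9 to 29.0 CPM (log2 ratio −1.41), Clu from 58.3 to 19.1 CPM (−1.61), Anxa1 from 10.3 to 2.13 CPM (−2.27) and Anxa3 from 25.1 to 10.6 CPM (−1.25). In fibroblast-rich squares 6 of the 9 members were higher, as were 71.1% of all genes, with median log2 ratios of 1.06 and 0.36. Ly6a reached 97.4 CPM against 34.0 CPM in the poorest class (1.52), Anxa1 13.7 against 2.79 CPM (2.29) and Basp1 6.36 against 0.95 CPM (2.74). Ly6a was also higher in squares rich in macrophage and dendritic cell genes (42.3 to 88.1 CPM, 1.06) and in endothelial genes (41.8 to 91.2 CPM, 1.13). For each of these lists 7 of the 9 members were higher, beside 69.6% and 64.0% of all genes. Clu went from 31.8 to 63.0 CPM with macrophage and dendritic cell genes (0.99). Over tiles of 50 units, the Pearson correlation of log2(CPM + 10) for Ly6a was 0.60 with macrophage and dendritic cell genes, 0.57 with fibroblast genes and 0.57 with endothelial genes, and for Clu it was 0.56 with macrophage and dendritic cell genes (348 tiles). Anxa2 and Cd55 were higher with enterocyte genes (0.53 and 1.12) and with pan-epithelial genes (0.76 and 1.31). Squares rich in fibroblast, smooth muscle, endothelial, macrophage and Paneth genes need not be different squares, and their parts were not separated.

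Anxa1, Ly6a and Spp1 are also known from blood-derived cells. Of their marker lists, 12 macrophage and dendritic cell genes summed to 687 against 174 CPM, WTIR first, 6 plasma cell genes to 3920 against 1838 CPM, 7 B cell genes to 113 against 18.4 CPM and 10 T and NK cell genes to 22.3 against 66.8 CPM. The part of these cells in the section differences was not tested. For WTIR, 7 members were higher in the neutrophil-richest squares (52.7% of all genes), with a median log2 ratio of 0.36 against 0.02 over all genes. Anxa1 went from 99.8 to 144 CPM (0.53) and Basp1 from 7.07 to 12.3 CPM (0.80). Ly6a hardly moved, from 1119 to 1048 CPM (−0.10), and Clu was lower (−0.64), turning to 0.44 without the B cell-rich squares. Among the 8141 KOIR squares 6277 had no neutrophil count. All 9 members were higher in the neutrophil-richest squares than in these, as were 61.5% of all genes. The interval of the ratio lay above 0 for only 7 of the 9. Cd55 hardly moved, from 117 to 118 CPM. The median was 0.75 for the members, against 0.07 over all genes. Among the 9 were Spp1 (1.26), Anxa1 (1.17) and Ly6a (0.92, from 51.8 to 98.3 CPM). In squares with no neutrophil count Ly6a stood at 1066 against 51.8 CPM and Spp1 at 210 against 4.18 CPM, WTIR first, on 3287 barcodes with 5.31% of the counts of the WTIR section.

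Counted over all 9, the genes sat together in squares about as often as their separate shares give. If each gene fell on squares independently, 28.2% of squares of the WTIR section would hold 4 or more of them, and 28.4% did. For 5 or more the shares were 7.80% and 8.95%, and for 6 or more 1.31% and 1.65%. Among KOIR squares 6.75% would hold 3 or more, and 6.72% did. Among the 36 pairs, the odds ratio of finding both genes was above 1 for 23 pairs in the WTIR section, with a median of 1.08. The highest were Anxa1 with Anxa2 (1.51), Ly6a with Anxa3 (1.45) and Ly6a with Anxa2 (1.42), all within the epithelial pattern. Every pair within that pattern stood above 1, the lowest being Anxa2 with Cd55 (1.06). Each pair below 1 held Clu, Spp1 or Basp1. How pairs of other genes stand was not tested. Ly6a with Spp1 stood at 0.61. For KOIR 16 pairs were above 1, and pairs of its sparse genes rest on few squares, such as 20 for Ly6a with Anxa1 and 85 for Ly6a with Clu. The count of pairs there was 26 when squares were thinned to 4000 counts, so no order is read from it.

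**Figure D5:**
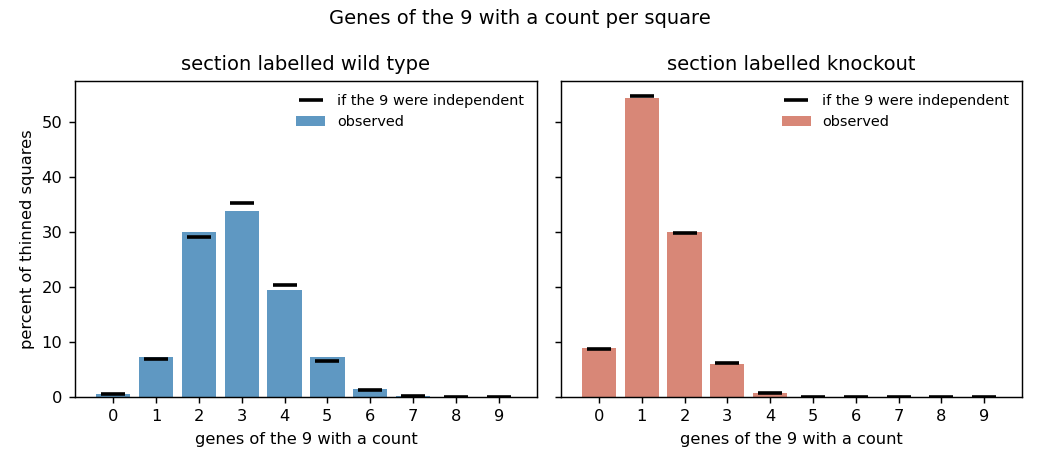
Percent of thinned squares (bars) that hold a count of 0 to 9 of the 9 genes, for each section, with short black lines at the percent that independent genes would give. Bars and lines lie close together in both: 28.4% against 28.2% of squares with 4 or more in the WTIR section and 6.72% against 6.75% with 3 or more in the KOIR section.

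Squares were also ranked by Ly6a itself. The share of all genes that were higher in its richest class is not given here. The ratios are therefore not shown to be particular to the members. For WTIR the richest over the poorest Ly6a class gave log2 ratios of 0.89 for Anxa2, 0.84 for Anxa3, Cd55 and Il33, and 0.67 for Anxa1, against −0.87 for Clu, −0.63 for Basp1 and −1.59 for Spp1. The KOIR ratios were 1.35 for Anxa1, 1.08 for Clu, 0.97 for Spp1, 0.93 for Anxa3 and 0.82 for Basp1, against 0.00 for Anxa2, −0.08 for Cd55 and −0.20 for Il33. The value for Clu in the WTIR section rested on the B cell-rich squares, without which, a step chosen after seeing the data, it was 0.20. The odds ratio of finding Ly6a and Clu in a square was 1.202 over all WTIR squares and 1.305 over KOIR squares. Whether the sections differ in these ratios was not tested. Over tiles of 50 units the Pearson correlation of log2(CPM + 10) between Ly6a and Anxa2 was 0.73 in the WTIR section (232 tiles) and −0.02 in the KOIR section (348 tiles). Between Ly6a and Clu it was −0.11 in the WTIR section and 0.51 in the KOIR section. Tiles share a library and local depth, and these correlations are descriptions.

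The genes most like each member over those tiles, by the same correlation, differ by member. Over WTIR tiles Anxa2 ran with S100a6 (0.94), Krt18 (0.91) and Lgals4 (0.87), Krt18 being a keratin of simple epithelia, and Ly6a with Chd9 (0.87), Lgals4 (0.85) and Chchd2 (0.83). Anxa3 ran with S100a6 (0.68) and Lgals3 (0.65), Il33 with Lgals3 (0.62) and Hopx (0.61), Anxa1 with Ahnak (0.58), and Cd55 with Prap1 (0.63). Clu ran with Cd74 (0.62), B2m (0.58) and H2-Eb1 (0.56), genes of antigen presentation. Spp1 ran with the matrix genes Thbs1 (0.74) and Tnc (0.73). Over KOIR tiles Cd55 and Anxa2 both ran with small proline-rich genes, at 0.89 for Cd55 with Sprr2a3 and 0.83 for Anxa2 with Sprr2a3, though reads of the near-identical Sprr2a genes may be split among them. Ly6a ran there with Gsn (0.61) and Clu with Igfbp5 (0.57), both common in stroma. No gene compared reached 0.50 with Basp1 in either section.

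Related genes were listed by role and read against a background of 22.2% of genes with 50 or more counts at least 2-fold lower and 15.5% at least 2-fold higher in the KOIR section. Of 25 other fetal or revival genes, 20 were at least 2-fold lower and none at least 2-fold higher, with a median log2 ratio of −2.27. Ereg, an EGF family ligand, stood at 884 against 12.1 CPM (−6.20), Plaur, the urokinase receptor, at 123 against 4.35 CPM (−4.82), Krt23 at 306 against 11.6 CPM (−4.73) and Wfdc2 at 58.4 against 2.71 CPM (−4.43). These 4 were named for the largest absolute ratios of the list, so their low levels follow from that choice. The list itself was chosen with earlier results of these data known.

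Of the 9 other annexins, 4 were at least 2-fold lower and 2 at least 2-fold higher, with a median of −0.83. Anxa8 (−3.51), Anxa10 (−2.08), Anxa5 (−1.48) and Anxa9 (−1.18) were lower, and Anxa13, an annexin of mature gut epithelium, went from 35.8 to 278 CPM (2.96). S100a10, whose protein pairs with that of Anxa2, stood at 796 and 889 CPM (0.16), close to equal like Anxa2, whereas S100a11, the partner of Anxa1, was lower (−2.21). With 50 or more counts there were 10 other Ly6 cluster genes, and 7 were at least 2-fold lower and 1 at least 2-fold higher, with a median of −2.40. Ly6c1 (−3.07), Ly6c2 (−3.69) and Ly6i (−3.21) were lower, and the neutrophil gene Ly6g had 2523 counts against 2 (−11.47, interval −14.52 to −9.62). Lypd2 had 0 counts against 81.

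Among 14 receptors and partners of the members, 11 were at least 2-fold lower and none at least 2-fold higher, with a median of −1.65. Il1rl1, the receptor of the Il33 product, stood at 76.6 against 5.03 CPM (−3.93), and Cd44, a receptor of osteopontin, at 313 against 58.2 CPM (−2.43). The formyl peptide receptors Fpr1 (95 counts against 4, −5.74) and Fpr2 (226 against 19, −4.74), through which the Anxa1 product acts, are genes of myeloid cells. Lrp8, a receptor that binds clusterin, was at −2.77. For Il33, Spp1, Anxa1 and Clu, the ligand and the receptor named here were both lower in the KOIR section. These receptors were named for the largest absolute ratios of the list, so their low levels follow from that choice. Of the 14 genes, 3 were within 2-fold. Of 7 complement regulators and relatives of Cd55, 1 was at least 2-fold lower and 1 at least 2-fold higher, Cd59b (1.36, on 15 against 87 counts). The median log2 ratio was 0.23, while the ratio of the summed list was −0.20. Cr1l (0.57) and Cd59a (0.46) were higher by less, and C3 was at −0.48. Of the 3 relatives of Basp1, 2 were at least 2-fold lower, Marcksl1 (−1.72) and Gap43 (−1.31), and Marcks was at −0.02.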

How the data were processed

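Each deposited matrix holds raw counts (whole numbers by gene and barcode, per the file headers and the values), with a position for each barcode. Per the labels' protocols, fresh frozen sections of 10 µm were sequenced as paired reads, and BSTMatrix and BSTViewer kept spots covered by tissue. GRCm38 is the build named in the submitters' processing notes. Aligner, counting tool, handling of molecular identifiers and unit of position are each not given in the sources used here, so the reads behind a count are unknown.

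Counts were summed by section, by 4 parts, by tiles (100 units with 200 or more barcodes, 50 units with 50 or more) and by squares (10 units with 2000 or more counts, thinned with seed 1), using Python 3.11.15, numpy 2.4.6, scipy 1.17.1 and pandas 2.3.3. Levels carry exact Poisson intervals and ratios exact conditional binomial intervals, at 95%. Where too many squares for 5 even classes had no count of a list, those squares formed class 1 and the rest were cut into 4. Named genes are the 9, up to 5 per related list with the largest absolute ratio (50 or more counts), and, for each of the 9, the 3 most alike genes with 1000 or more counts, of which the text gives some. Some genes that this rule names are not reported here, though the counts and medians of their lists include them. S100a10, S100a11 and follicle genes were added after their values were seen. The 9 genes and all lists were chosen with earlier results of these data known. Alternatives changed scaling, genes in the total, squares kept, thinning and grid. Scripts were tested on simulated data.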

Additional observations from a re-analysis of the deposited data

How the results depend on the processing

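No paired analysis was possible because each group has 1 section. No p-value bears on any result, and the intervals leave out the spread between mice. The count of members at least 2-fold lower stayed at 7 under every alternative run, other than a 4-fold limit, which gave 6. The log2 ratio of the summed level, −1.27, was −1.09 under median-of-ratios scaling, −1.41 with Paneth and enterocyte genes out of the total, −1.36 without the 50 most abundant genes, −1.57 in pan-epithelial-rich squares, −1.29 in squares with no neutrophil count and −1.32 in the squares poorest in smooth muscle genes. Leaving out 1 part of a section gave −1.30 to −1.25. Leaving out 1 gene, a step chosen after seeing the data, gave −1.23 for Clu, −0.69 for Ly6a, −1.22 for Anxa1, −2.74 for Anxa2, −1.23 for Anxa3, −1.25 for Il33, −1.20 for Spp1 and −1.38 for Cd55. Anxa2 alone changed direction, to 0.011 in squares with no neutrophil count. Cd55 ranged from 0.47 to 1.12 over 16 alternatives, the last with scaling by the median of ratios, past 2-fold. Over the same 16, Clu ranged from −3.50 to −1.70, Ly6a from −5.06 to −4.08, Anxa3 from −3.39 to −2.54, Anxa1 from −5.40 to −3.95, Basp1 from −2.26 to −1.25 and Spp1 from −5.65 to −4.07, and the cause was not tested. Thinning to 4000 counts gave 26 pairs above 1 in the KOIR section, against 16. Taking the Paneth list out of the total left 1 member higher in the Paneth-richest squares of the WTIR section, against 0. Depth limits Basp1 most, then Spp1 and Anxa1 in the KOIR section, at 405 and 561 counts.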
